A study of Drosophila melanogaster with 6 samples.

Results

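The peptidoglycan recognition protein (PGRP) genes of Drosophila melanogaster were read in whole larvae with and without normal maleless (mle), the gene of an RNA helicase that the MSL complex needs to raise transcription of the single male X chromosome. Members were all genes whose symbol starts with PGRP- and that have a probe set annotated to that gene alone. This gave 7 genes on 8 probe sets, out of 10844 genes with such a probe set. They were the short forms PGRP-SB1, PGRP-SB2 and PGRP-SC2 and the long forms PGRP-LA (on 2 probe sets), PGRP-LB, PGRP-LE and PGRP-LF. RefSeq lists 13 PGRP genes. Another 3 of these, PGRP-SC1a, PGRP-SC1b and PGRP-LD, were covered only by probe sets annotated to a pair of genes, and PGRP-SA, PGRP-SD and PGRP-LC had no probe set under their symbols and were not analysed here.

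Total RNA was hybridised to 6 single-colour Affymetrix arrays, 3 of mle/mle larvae and 3 of wild type larvae, all taken at the third instar. The mle/mle larvae were homozygous males, told apart from heterozygotes by phenotype, and their allele and background strain are not named. The wild type larvae are labelled cancon S, with no sex given, so strain and sex cannot be told apart from mle here. The labels call the arrays biological replicates without the number of larvae behind each, so p-values set group differences against the spread between these RNA samples. Signals are log2 values from RMA, a method that sums the probes of a probe set after normalization. RMA gives no detection call and no true 0, and it compresses changes of dim probe sets. In RNA of whole larvae, fewer cells of a type and less RNA per cell cannot be told apart.

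PGRPs bind peptidoglycan, the polymer of bacterial cell walls, through a domain related to bacteriophage amidases. In flies some members are receptors: PGRP-LC and PGRP-LE start the IMD pathway, whereas PGRP-SA and PGRP-SD act upstream of Toll. Others, among them PGRP-LB, PGRP-SB1, PGRP-SC1 and PGRP-SC2, keep the amidase activity and cut peptidoglycan. In this way PGRP-LB, PGRP-SC1 and PGRP-SC2 limit IMD signalling, mostly in the gut and fat body. PGRP-LF blocks PGRP-LC at the cell surface.

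No member passed limma's test over all 13966 probe sets at an adjusted p under 0.05, a threshold that 8 probe sets, or 0.0573%, passed. At an unadjusted p under 0.05 there were 2 of the 8 member probe sets, PGRP-SC2 and PGRP-SB1, against 4.32% of all probe sets. The groups did not overlap in 3 of the 8, those of PGRP-SC2, PGRP-SB1 and PGRP-LB, against 8.36% of all probe sets. The 3 genes are amidases that went in different directions, PGRP-SC2 and PGRP-LB reading lower in mle/mle and PGRP-SB1 higher. The median log2 change of the member probe sets was -0.06, with 3 positive and 5 negative, against a median of 0.01 and 53.7% positive over all probe sets.

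**Figure D1:**
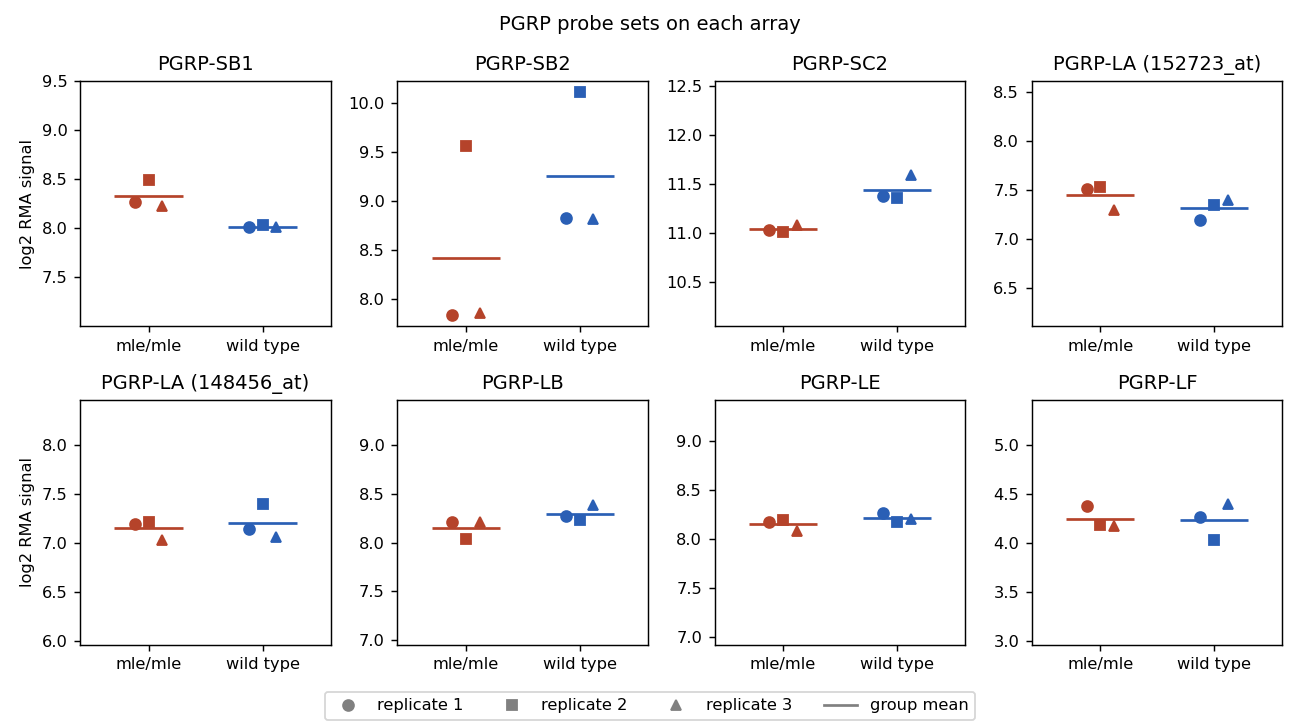
Log2 RMA signal (vertical axis, 2.5 units high in every panel) of each PGRP probe set on the 3 mle/mle and 3 wild type arrays; symbols mark the replicate number and lines the group mean. PGRP-SB1 and PGRP-SC2 part the groups by 0.19 and 0.28, and PGRP-SB2 has its highest value of each group in replicate 2, 9.56 in mle/mle and 10.11 in wild type.

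PGRP-SC2 encodes a secreted amidase of the gut. It read 11.03, 11.01 and 11.09 in the 3 mle/mle arrays, against 11.38, 11.36 and 11.60 in the wild type arrays. Every mle/mle array lay below every wild type array, with 0.28 between the nearest values, and each same-numbered pair had the lower signal in mle/mle. The means were 11.04 ± 0.04 in mle/mle and 11.45 ± 0.14 in wild type (SD, n = 3 each), a log2 change of -0.41, or 0.755 times the wild type signal. The 95% confidence interval of the change was -0.60 to -0.21 (SE 0.09), and it did not pass the test (limma adjusted p = 0.281, exact two-sided permutation p over the arrays 0.10). That permutation p is the smallest that 3 against 3 arrays allow. With replicates 1 and 3 of both groups only, the change of -0.43 had an adjusted p of 0.0446 by limma, where 453 probe sets, or 3.24%, passed. The unadjusted limma p of PGRP-SC2 hardly moved, at 0.00134 there against 0.00151 over all 6 arrays, and the SE was 0.09 in both. Over all 6 arrays 8 probe sets passed.

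PGRP-SB1, a secreted amidase whose gene is induced by infection, went the other way. Its signals were 8.27, 8.50 and 8.23 in mle/mle larvae and 8.01, 8.04 and 8.01 in wild type larvae. The wild type arrays lay within 0.025 of each other, and all 3 mle/mle arrays lay above them by at least 0.19. The means of 8.33 ± 0.14 in mle/mle and 8.02 ± 0.014 in wild type (SD, n = 3 each) gave a log2 change of 0.31, or 1.24 times, with a 95% confidence interval of 0.11 to 0.51. This did not pass either (SE 0.09, limma adjusted p = 0.600), and the exact permutation p was again 0.10. Replicate 2 was the highest of the mle/mle arrays, and without it the change was 0.23.

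PGRP-LB, the long amidase with secreted and intracellular forms, read 8.20, 8.03 and 8.21 in mle/mle and 8.27, 8.23 and 8.38 in wild type. The groups were separate by only 0.018, less than the SD within either group (0.10 in mle/mle and 0.08 in wild type). Its log2 change was -0.14 (95% confidence interval -0.34 to 0.05, limma adjusted p = 0.9997, exact permutation p = 0.10). Without mle/mle replicate 2 it was -0.086.

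PGRP-SB2, which RefSeq places beside PGRP-SB1 on chromosome arm 3L, varied most among the members. It read 7.84, 9.56 and 7.85 in mle/mle replicates 1 to 3, against 8.83, 10.11 and 8.81 in wild type replicates 1 to 3. In both groups replicate 2 stood far above the other arrays, by 1.71 in mle/mle and by 1.29 in wild type. The groups therefore overlapped, although each same-numbered pair was lower in mle/mle, by -0.99, -0.56 and -0.96 on the log2 scale. Its pooled SD between replicates of 0.88 exceeded that of 99.9% of all probe sets, whose median was 0.11.

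The means of PGRP-SB2 were 8.42 ± 0.99 in mle/mle and 9.25 ± 0.75 in wild type (SD, n = 3 each). The log2 change of -0.84 had a 95% confidence interval of -2.00 to 0.33 and did not pass (SE 0.51, limma adjusted p = 0.9997, exact permutation p = 0.30). With the replicate number as a block, the same change had an SE of 0.10 and an unadjusted p of 0.000127, and still did not pass adjustment (limma adjusted p = 0.0746). In that blocked fit 3 of the 8 member probe sets had an unadjusted p under 0.05, those of PGRP-SB2, PGRP-SC2 and PGRP-SB1, against 7.18% of all probe sets. With replicates 1 and 3 of both groups only, PGRP-SB2 changed by -0.98 (SE 0.07, limma adjusted p = 0.000271). That fit leaves out the replicate 2 arrays, which hold most of the spread of PGRP-SB2, so the small SE follows from leaving them out. The choice of this fit was made with earlier results of these data known. PGRP-SB2 and PGRP-SC2 were the 2 of 8 member probe sets called in that fit, against 3.24% of all probe sets. Single arrays moved the value of PGRP-SB2 widely, to -1.41 without mle/mle replicate 2 (adjusted p = 0.206), to -0.55 without mle/mle replicate 1 or replicate 3, and to -0.40 without wild type replicate 2, none past limma's test.

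Among 6899 other genes above a filter on dim signals, the gene whose profile over the 6 arrays was closest to that of PGRP-SB2 was Eig71Ed, an ecdysone-induced gene of the salivary gland. The root mean square difference of the centred log2 signals was 0.16. Eig71Ed read 6.03, 7.68 and 5.92 in mle/mle replicates 1 to 3 and 6.93, 8.60 and 6.80 in wild type replicates 1 to 3, so that replicate 2 was again the highest of each group. Next came Eig71Eg, of the same cluster, at 0.41 and the serpin gene Spn43Aa at 0.44. In both groups, replicate 2 lay at least 1 above the mean of replicates 1 and 3 for 8 of the 13966 probe sets. These were PGRP-SB2, Eig71Ea, Eig71Ed, Eig71Ef, Eig71Eg and 3 probe sets without a single gene symbol, a criterion chosen after the values of PGRP-SB2 were seen.

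**Figure D2:**
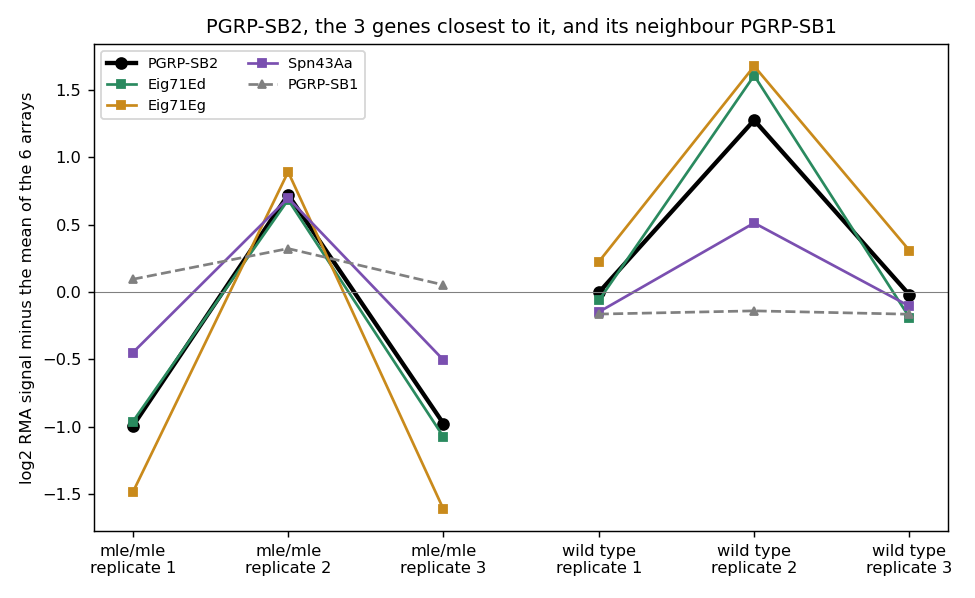
Log2 RMA signal of PGRP-SB2, of the 3 genes closest to it and of its neighbour PGRP-SB1 on each array (horizontal axis), each centred on its own mean over the 6 arrays (vertical axis). PGRP-SB2 and Eig71Ed differ by a root mean square of 0.16 and peak in replicate 2 of both groups, whereas PGRP-SB1 spans 0.49 in all.

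The receptor and modulator genes of the long form differed less. PGRP-LE, an intracellular sensor of the IMD pathway on the X chromosome, read 8.17, 8.19 and 8.09 in mle/mle and 8.26, 8.17 and 8.20 in wild type. The groups overlapped, and its pooled SD of 0.05 was smaller than that of most probe sets (8.9% had a smaller one). Its change of -0.06 had a 95% confidence interval of -0.22 to 0.10 (limma adjusted p = 0.9997), and it was -0.029 without mle/mle replicate 3 and -0.036 without wild type replicate 1.

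PGRP-LA, a modulator of IMD signalling in the airway epithelium of larvae, was read by probe sets that differed in sign. The probe set 152723_at gave 7.52, 7.54 and 7.30 in mle/mle against 7.20, 7.35 and 7.40 in wild type, a log2 change of 0.13 (95% confidence interval -0.08 to 0.35) that was 0.21 without mle/mle replicate 3 and 0.074 without wild type replicate 1. The probe set 148456_at gave 7.20, 7.22 and 7.03 in mle/mle against 7.15, 7.40 and 7.07 in wild type, a log2 change of -0.05 (95% confidence interval -0.29 to 0.19). Both pairs of groups overlapped, neither change passed (limma adjusted p = 0.9997 for both), and the mean of the probe sets changed by 0.04.

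PGRP-LF, the membrane inhibitor of PGRP-LC and its neighbour on 3L, read 4.38, 4.18 and 4.17 in mle/mle and 4.27, 4.03 and 4.39 in wild type. It was the only member probe set among the dimmest 40% of all probe sets. Its change of 0.01 (95% confidence interval -0.24 to 0.27, limma adjusted p = 0.9997) carries that limit, and in the second deposited table it was -0.11.

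That second table holds log2 signals of the same arrays from PLIER, another summary method, without replicate numbers. There 3 of the 8 member probe sets had an unadjusted p under 0.05, against 4.45% of all probe sets, and none passed adjustment. They were PGRP-SC2 (-0.36, limma adjusted p = 0.920), PGRP-SB1 (0.60, adjusted p = 1.0) and PGRP-SB2 (-2.61, adjusted p = 1.0). PGRP-SB2 read 4.94, 9.33 and 5.11 on the mle/mle arrays and 8.63, 9.71 and 8.87 on the wild type arrays. The lowest value in this table is 4.0. A pair of mle/mle arrays lay at 4.94 and 5.11, and the remaining mle/mle array lay among the wild type arrays. PLIER columns carry array codes on 4 and on 2 arrays, each with equal numbers of both groups. Within them the changes were -2.04 and -3.76 for PGRP-SB2, 0.81 and 0.17 for PGRP-SB1, and -0.32 and -0.44 for PGRP-SC2.

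**Figure D3:**
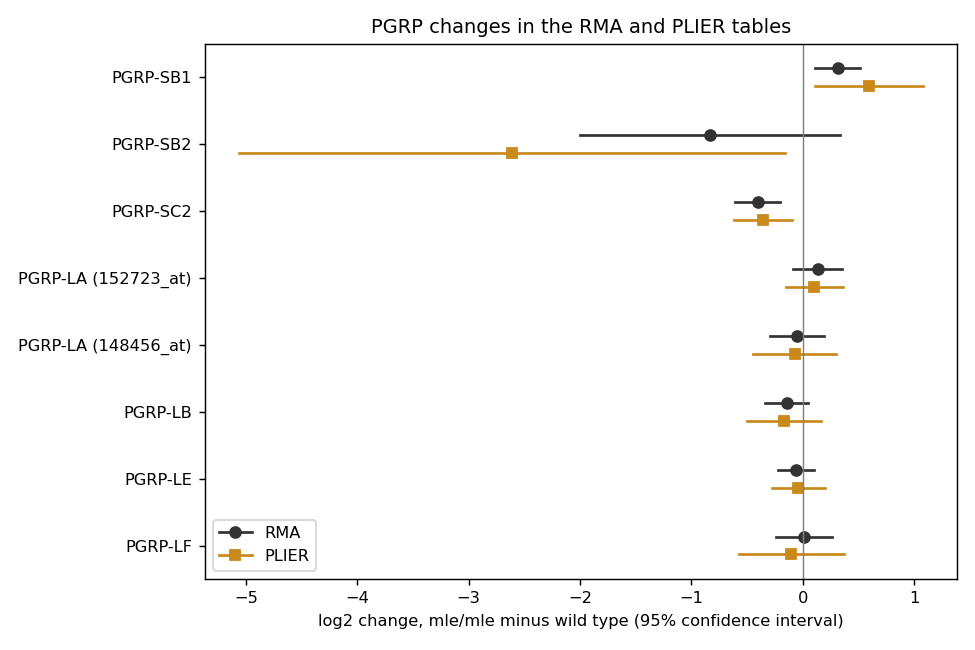
Log2 change (mle/mle minus wild type, horizontal axis) of each PGRP probe set with its 95% confidence interval from limma, in the RMA table (circles) and the PLIER table (squares). PGRP-SB1 lies above 0 and PGRP-SC2 below 0 in both tables, and PGRP-SB2 has the widest interval, -2.00 to 0.33 with RMA.

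The probe sets of gene pairs were read with the family, and none is assigned to either of its genes. Probe set 146830_s_at, annotated to PGRP-SC1a and PGRP-SC1b, read 10.68, 10.45 and 10.64 in mle/mle and 10.70, 10.42 and 10.72 in wild type, a log2 change of -0.02 (95% confidence interval -0.27 to 0.22). The other probe set of that pair, 152118_at, also changed by -0.02. In both, replicate 2 was the lowest array of each group, the reverse of PGRP-SB2. The probe sets annotated to PGRP-LD and Pmi changed by 0.12 (142319_at) and 0.01 (151527_at), and by 0.19 and 0.42 in the PLIER table. None of these 4 passed limma's test (adjusted p = 0.9997 for each with RMA).

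Genes that act with the PGRPs were read as lists. Of the IMD signalling genes, 13 of 15 were measured, 9 were positive and 4 negative, the median change was 0.02, and none passed limma's test. The NF-kappaB factor gene Rel differed by 0.29 and the kinase gene IKKbeta by 0.11, while the caspase gene Dredd differed by -0.11 and akirin, a nuclear cofactor of Rel, by -0.18. None of these 4 had an unadjusted p under 0.05.

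All 11 inhibitors of the pathway were measured, with a median of 0.08 and none called. The gene pirk, whose product binds PGRP-LC and lowers its signal, read 7.84 ± 0.23 in mle/mle and 7.45 ± 0.14 in wild type (SD, n = 3 each), a log2 change of 0.39 (limma adjusted p = 0.798). With replicates 1 and 3 of both groups only, pirk was the 1 inhibitor of 11 called (0.45, limma adjusted p = 0.0410), against 3.24% of all probe sets. That fit leaves out its lowest mle/mle array, replicate 2 at 7.59. The gene casp differed by 0.20, Usp2 by -0.08 and POSH by -0.04.

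Of 20 Toll pathway genes 17 were measured, 8 positive and 9 negative, with a median of -0.003 and none called. The Toll ligand gene spz differed by 0.22 and the serpin gene nec by 0.18, while cact, the inhibitor of the Toll-dependent NF-kappaB factors, differed by -0.16 and Traf6 by -0.13.

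Of 30 antimicrobial peptide genes, many of which are targets of the IMD or Toll pathway, 10 were measured, 4 positive and 6 negative, with a median of -0.04. Listericin fell by 0.78 (limma adjusted p = 0.0428) and was the only one called. Def differed by 0.26, Drsl5 by 0.16 and BomS2 by -0.29. The Drsl5 value rests on mle/mle replicate 2. Drsl5 read 9.23, 11.11 and 9.32 in mle/mle replicates 1 to 3, against 9.96, 9.14 and 10.07 in wild type. With replicates 1 and 3 of both groups only, Def (0.40) was called higher and Drsl5 (-0.75) joined Listericin (-0.79) as lower, so that 3 of 10 were called against 3.24% of all probe sets. Lysozyme genes, which encode the other enzymes that cut peptidoglycan, were all 17 measured, with 11 positive, a median of 0.06 and none called. Of the positive members, LysB, LysC, LysD and LysE were read by probe sets with the suffix _f_at, which may share signal between these genes. The positive members with the smallest p were CG16799 (0.49, limma adjusted p = 0.747) and LysE (0.20), and the negative ones CG6426 (-0.23) and CG6429 (-0.17). CG16799 and CG14823, 2 of the 17, were called as higher with replicates 1 and 3 of both groups only. Beside these lists the median over all 10844 genes was 0.01, with 53.6% positive.

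**Figure D4:**
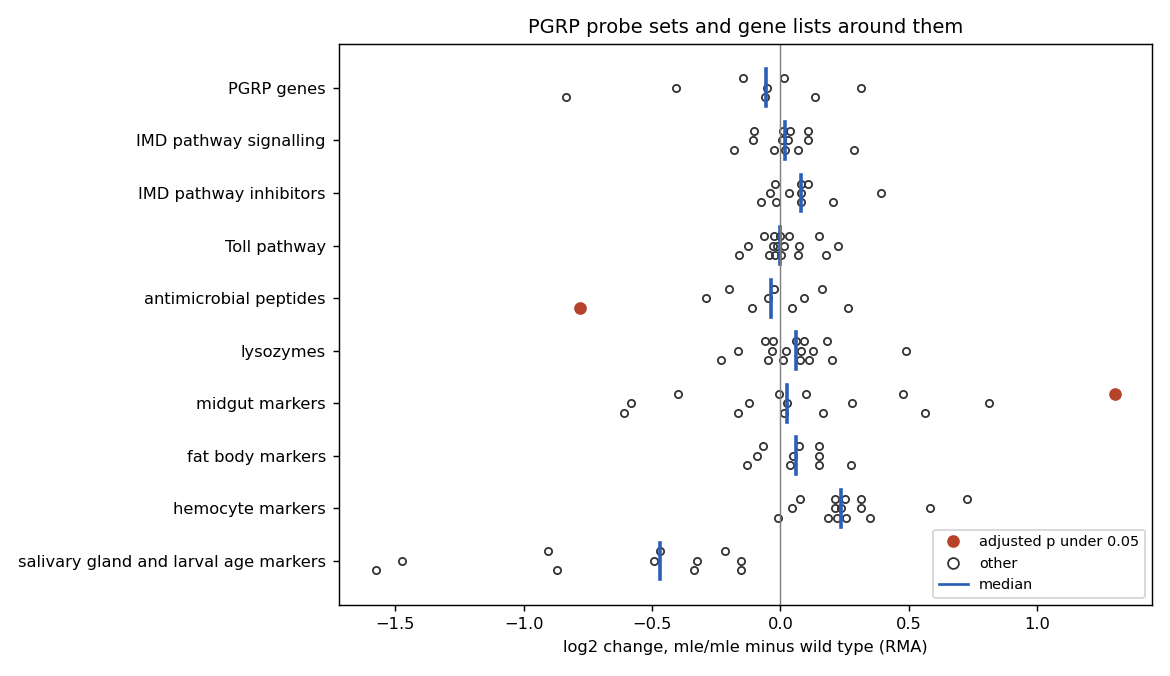
Log2 change (mle/mle minus wild type, horizontal axis) of each PGRP probe set and of each measured gene of the 9 lists (rows); filled points passed limma's test over all probe sets and vertical bars are medians. Listericin at -0.78 and Amy-d at 1.30 are the called genes, and the salivary gland and larval age list has 11 of 11 genes below 0.

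Markers of tissues that express PGRPs were read beside them. Midgut markers, 15 of 19 measured, had 9 positive and 6 negative members and a median of 0.03. Their summed linear signals ran from 84750 to 91950 in mle/mle and from 87290 to 91370 in wild type, which overlap. Amy-d rose by 1.30 (limma adjusted p = 0.00761). The next members by p were Mal-A6 (0.56) on the positive side, and betaTry (-0.58) and Jon99Fi (-0.61) on the negative side. With replicates 1 and 3 of both groups only, 7 of the 15 were called, Amy-d, Mal-A1, Mal-A6, Jon44E and alphaTry higher and Jon99Fi and betaTry lower, against 3.24% of all probe sets. Amy-d, Mal-A6, betaTry and Jon99Fi each had a larger difference over all arrays than PGRP-SC2, and the part of the midgut in the PGRP-SC2 value was not tested.

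Fat body markers, 10 of 13 measured, had a median of 0.06 with none called. Their sums were 37500 to 42650 in mle/mle and 35050 to 40350 in wild type. Fbp1 differed by 0.27 and Yp1 by 0.15, apolpp by -0.07 and CtsL1 by -0.09. Hemocyte markers had 14 of 15 positive, a median of 0.24 and none called, and sums of 5017 to 8095 in mle/mle and 4233 to 5152 in wild type. These sums are mostly the signal of Nplp2, the brightest marker (mean 12.05 in mle/mle and 11.32 in wild type). The mle/mle sum of 5017 was that of replicate 2. Nplp2 differed by 0.73 and eater by 0.22, and crq, the only negative member, by -0.01. With replicates 1 and 3 of both groups only, 5 of the 15 hemocyte markers were called, all higher, against 3.24% of all probe sets. The part of fat body and hemocytes in the PGRP-SB1 value was not tested.

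The salivary gland and larval age list holds glue protein genes and the ecdysone-induced Eig71E genes. All 11 measured members of 13 were negative, with a median of -0.47 and none called. The sums were 46440 to 56860 in mle/mle and 60010 to 63180 in wild type and did not overlap. In mle/mle the sum was highest in replicate 2, the array with the most PGRP-SB2, whereas in wild type it was lowest in replicate 2. Such linear sums rest mostly on the brightest members, such as Sgs7 (mean 14.19 in wild type). Among wild type arrays, Sgs4, Sgs5 and Sgs8 were lowest in replicate 2, whereas Sgs1 (10.29) and Sgs3 (13.4) were highest there. The dimmer Eig71Ea, Eig71Ed, Eig71Ef and Eig71Eg (wild type means 7.88, 7.44, 6.06 and 7.945) were highest in replicate 2 of both groups, as PGRP-SB2 was. The members nearest to the threshold were Sgs8 (-0.49, limma adjusted p = 0.321) and Eig71Ee (-0.47, adjusted p = 0.600). With replicates 1 and 3 of both groups only, 8 of the 11 were called, all lower, as PGRP-SB2 was, in a fit that called 3.24% of all probe sets. With the replicate block Eig71Ed was called (-0.90, limma adjusted p = 0.0205). Eig71Ed is also the gene closest in profile to PGRP-SB2, so its call adds nothing to the change of PGRP-SB2. The part of larval age or salivary gland content in the PGRP-SB2 value was not tested.

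For PGRP-SC2 the 3 closest profiles over the arrays were those of the extracellular superoxide dismutase gene Sod3 (root mean square difference 0.046), CG13377 (0.052) and the cuticle protein gene Cpr92F (0.060). For PGRP-SB1 they were the glutathione transferase gene GstT3 (0.024), CG10005 (0.056) and CG8788 (0.060). GstT3 read 8.99, 9.27 and 8.94 in mle/mle and 8.76, 8.75 and 8.77 in wild type, with replicate 2 highest in mle/mle and a narrow wild type group, as in PGRP-SB1. These genes were picked for likeness among 6899, so their changes add nothing to those of the members.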

How the data were processed

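RNA of 3 mle/mle and 3 wild type samples was read on 1 array each. The authors deposited log2 signals for every probe set, computed with RMA according to the submitters' processing notes; its settings are not given in the sources used here. A second deposited table has log2 signals from PLIER (offset 16, per the file headers), whose columns name groups but no replicate numbers. RMA medians per array lay between 6.89 and 6.92, and correlations between arrays between 0.987 and 0.997. The number of arrays limits precision. Of 14010 probe sets, 44 controls were left out. Platform symbols were updated by Entrez ID through RefSeq (Release 6 plus ISO1 MT), and 12443 probe sets had 1 symbol, 327 several and 1196 none.

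The main comparison was a limma 3.58.1 fit (lmFit, eBayes; R 4.3.3) without a block, two-sided, and its p-values were Benjamini-Hochberg adjusted across 13966 probe sets. Figures used matplotlib 3.10.9. A gene of a list was read from its probe set with the highest mean. The members, lists, named genes and alternatives were chosen with earlier results of these data known. The naming rule took every PGRP gene, all called list members, the 2 with the smallest p per direction and list, and for the 3 PGRP genes of widest range the 3 closest profiles above the dimmest 40% of probe sets. Same-numbered arrays deviated together (correlations 0.17, 0.28 and 0.52 over probe sets), against -0.41 to 0.01 between arrays of unlike number. The title numbers were therefore taken to pair samples, so that pairing was read from these same data. Deviations were taken from group means, so these correlations are not independent. The same-numbered pairs and the replicate block rest on this pairing. On simulated data with independent noise, limma recovered 44% of the changes set at 0.5 and 92% of those set at 1. Alternatives were the PLIER table, quantile normalization, the dim filter, the replicate block, another variance model, the array codes, and fits without each array or without the replicate 2 arrays.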

Additional observations from a re-analysis of the deposited data

How the results depend on the processing

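Of 113 member values under 14 alternative settings and the mean over probe sets, 101 kept their sign and their side of the threshold, 2 became called (PGRP-SB2 and PGRP-SC2 with replicates 1 and 3 of both groups only) and 10 changed sign, all of PGRP-LF and of PGRP-LA probe set 148456_at and none past limma's test. PGRP-LF read -0.11 in the PLIER table with and without the array code as a block, -0.26 within the code of 4 arrays, -0.055 with replicates 1 and 3 only, and -0.087 to 0.096 with each array left out. The PGRP-LA probe set read 0.013 with replicates 1 and 3 only, 0.041 as the mean of both probe sets, and -0.12 to 0.047 with each array left out. With each array left out, PGRP-LB read -0.18 to -0.086, PGRP-LE -0.083 to -0.029 and PGRP-LA probe set 152723_at 0.074 to 0.21. The replicate block changed no call of a member: PGRP-SB2 stayed at -0.84 (limma adjusted p = 0.0746). Members at an unadjusted p under 0.05 numbered 2 to 3 with each array left out and 1 within the code of 4 arrays. The 8 called probe sets became 4 in the PLIER table, 1 there with the array code as a block, 0 within the code of 4 arrays (limma, 399 at an unadjusted p under 0.05) and 453 with replicates 1 and 3 only. With each array left out they numbered 0 to 145: 145 without mle/mle replicate 2, 7 without wild type replicate 2, and 0 without any 1 of the others, where limma had 355 to 709 at an unadjusted p under 0.05. Called list members numbered 2 (Amy-d and Listericin), against 3 with the replicate block (also Eig71Ed, limma adjusted p = 0.0205), 1 in the PLIER table with and without the array code as a block, 0 within the code of 4 arrays, 26 with replicates 1 and 3 only, and 0 to 13 with each array left out. The causes were not tested.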
